A study of Mus musculus with 2 samples.

Results

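Plac8-positive cells made up a small group within the sorted adipose tissue macrophages (ATMs) of mouse epididymal fat: 60 of 4385 kept cells, 22 in the control diet library and 38 in the high fat diet library. A kept cell had 200 to 3500 detected genes and at most 10% of its unique molecular identifiers (UMIs, 1 per captured transcript) from mitochondrial genes. Members were the kept cells with at least 1 UMI of *Plac8* and at least 3 summed UMIs of 5 genes, *Plac8*, *Gngt2*, *Sirpb1c*, *Ms4a4c* and *Fcgr4*, which are transcribed in circulating monocytes. These 5 genes chose the cells, so their levels are a description of the choice, and the comparisons with other cells leave them out.

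Monocytes are made in bone marrow and travel in blood. Classical monocytes carry much Ly6C and the chemokine receptor CCR2 and enter tissues, where they can become macrophages, whereas patrolling monocytes carry little Ly6C, depend on the nuclear receptor NR4A1, express the fractalkine receptor CX3CR1 and crawl along the vessel wall. In fat, macrophages that live there for long periods carry the hyaluronan receptor LYVE1 and the folate receptor FOLR2, and newly arriving monocytes replace or join them when the diet changes.

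Male C57/BL6 mice (C57BL/6JOlaHsd in the study's methods), 8 to 12 weeks old, received a control diet with 11% of its energy from fat (CD) or had overnight access to a diet with 58% (HFD). The labels name no engineered allele in either group. ATMs were sorted from the epididymal fat pads as CD45+ F4/80+ cells that lacked T cell, B cell, eosinophil and neutrophil surface markers and had low or no surface Ly6C, so the gate itself removed monocytes with much Ly6C protein. Each diet gave 1 droplet library, made from a pool of 3 mice, and no value below has a replicate check. Diet and library cannot be told apart, and every interval is a 95% interval that covers counting error only.

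The CD library held 15003119 UMIs in 4459 barcodes, of which 2364 were kept, and the HFD library held 9164686 UMIs in 3163 barcodes, of which 2021 were kept. Kept cells had a median of 4490.5 UMIs in CD and 2792 in HFD. Plac8-positive cells had more RNA captured than the median cell, with medians of 6337.5 UMIs in CD (range 2421 to 12723) and 5053.5 in HFD (range 1623 to 12892). The Plac8-positive cells summed to 135891 UMIs in CD and 213063 in HFD. Their mitochondrial share was 2.31% in CD and 2.17% in HFD, against 4.17% and 3.67% in the other kept cells. The libraries shared 14 barcodes, 10 of them kept in each library, and 0 of these were Plac8-positive cells. A doublet caller's highest scores, up to the number of doublets expected at these cell numbers, included 0 Plac8-positive cells in either library.

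Plac8-positive cells were a larger share of the HFD library. They made up 0.931% of kept cells in CD (exact interval 0.584 to 1.41) and 1.88% in HFD (1.33 to 2.57), a ratio of 2.02 (1.16 to 3.59). A share also depends on how many other cells were kept, and their make-up differed. Other kept cells with at least 1 UMI of *Lyve1* and 2 of *Folr2* numbered 1056 of the 2364 kept in CD and 230 of the 2021 kept in HFD. The ratio of shares is therefore not a ratio of cell numbers in the tissue. With at least 3 *Plac8* UMIs required, a choice made after the data were seen, 18 CD cells (0.761%) and 27 HFD cells (1.34%) were left, and the ratio of 1.75 had an interval that held 1 (0.931 to 3.38). The rule counts UMIs, so a deeper cell meets it more easily, and the CD library was the deeper of the pair. With each cell thinned to 1500 UMIs and shallower cells left out, the rule was met by 12 of 2209 cells in CD (0.543%, 0.281 to 0.947) and by 26 of 1475 in HFD (1.76%, 1.15 to 2.57). The HFD share was the higher in each of 4 bands of depth, but the exact intervals of CD and HFD were apart only in the third band. In the shallowest band 0 of 301 CD cells met the rule, which allows a share of up to 0.997% by a limit of 3 counts (exact upper bound 1.22%), against 1 of 774 HFD cells (0.129%). In the next 3 bands the CD shares were 1.08%, 1.09% and 0.988%, and the HFD shares were 2.32%, 3.89% and 2.46%. The intervals in the third band were 0.522 to 1.99 in CD and 2.36 to 6.01 in HFD, and in every other band they overlapped. Of the barcodes that failed the filters, 0 of 2059 in CD and 0 of 1132 in HFD with more than 10% mitochondrial UMIs met the rule.

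**Figure D1:**
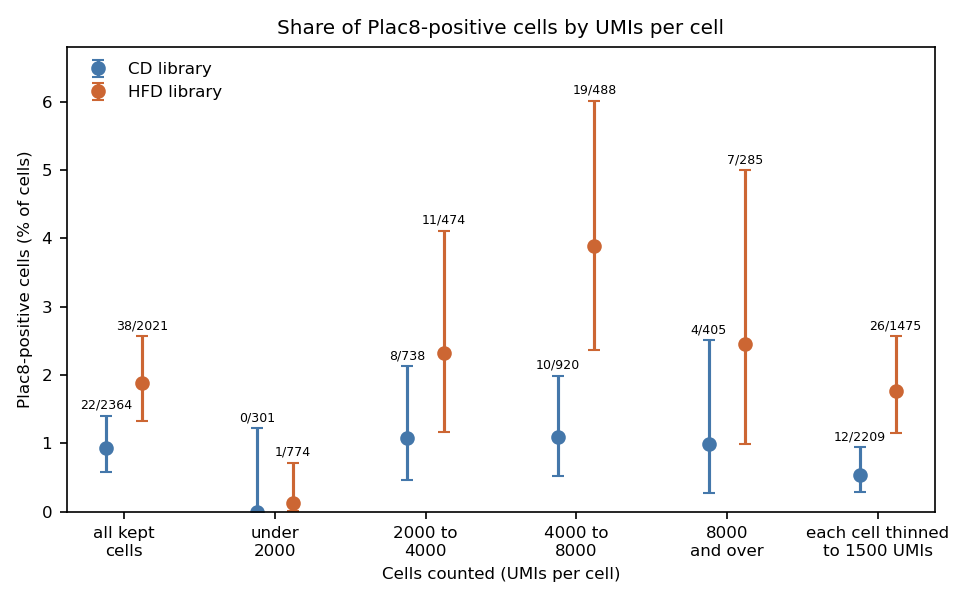
Share of Plac8-positive cells among kept cells (y axis, percent) in all kept cells, by band of UMIs per cell and with each cell thinned to 1500 UMIs (x axis) in the CD and HFD libraries, with exact 95% binomial intervals as bars. HFD lies above CD in each band, from 0.129% against 0 in the shallowest to 3.89% against 1.09% in the third band.

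Of the genes that chose the cells, *Plac8* (placenta-specific 8, a small cysteine-rich protein of monocytes and granulocytes, on the minus strand of mm10 at chr5:100553725-100572245) gave most UMIs. The CD cells held 295 UMIs of *Plac8*, 75 of *Gngt2*, 62 of *Sirpb1c*, 97 of *Ms4a4c* and 29 of *Fcgr4*, and the HFD cells held 690, 107, 86, 84 and 43. A member had 1 to 62 *Plac8* UMIs in CD (median 9.5) and 1 to 83 in HFD (median 7). The CD library had 14 members with 4 of the 5 genes and 0 with all of them, and the HFD library had 13 with 4 genes and 5 with all of them. Outside the members a *Plac8* UMI was seen in 20 CD cells (0.854% of the others) and 35 HFD cells (1.77%). Among cells with *Lyve1* and *Folr2* transcripts, resident macrophages that should lack the gene, the shares were 0.568% in CD and 2.61% in HFD, at median depths of 4079 and 2543 UMIs, so a lone *Plac8* UMI in HFD was at the level of background.

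The monocyte gene *Ms4a6c*, which is outside the rule, was lower near the threshold in HFD, and in CD its value there rested on few cells. Just inside, with 3 or 4 summed UMIs, were 3 CD and 4 HFD cells, in which it stood at 429 and 65.9 UMIs per 1000000 UMIs (CPM). The CD cells included 1 rich in the stromal gene *Dcn*, described below, and without it the value was 848 CPM from 8 UMIs in 2 cells. Members with 5 or more summed UMIs, 19 in CD and 34 in HFD, had 1134 and 1067 CPM of *Ms4a6c*. Just outside, with *Plac8* and 2 summed UMIs, were 1 CD and 8 HFD cells with 0 and 51.8 CPM. The 4 HFD cells just inside also had 40448 CPM of *Retnla*, the secreted resistin-like protein that dominates these ATMs, against 9780 in the HFD members with 5 or more.

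The label of monocytes was checked on 19 genes of monocytes in general that passed the level needed to be counted in a list, a mean of 50 CPM over members and other kept cells. In CD 18 of the 19 were at least 2-fold higher in Plac8-positive cells and 0 lower, with a median log2 ratio of 1.97, whereas 10.7% of 2455 such genes were that much higher and the median of all was 0.13. In HFD 13 of 19 were higher and 0 lower, with a median of 1.29, against 7.06% of 2437 genes and a median of 0.14. Without the single highest cell of each gene, 13 genes in CD and 11 in HFD were at least 2-fold higher, as were 136 of 2455 and 91 of 2437 of all genes. Scaling by the median of ratios in place of total UMIs moved the share of higher genes among all those past 2-fold from 49.5% to 40.7% in CD and from 53.6% to 38.6% in HFD. The exception among the monocyte genes in CD was *Csf1r*, the receptor of the macrophage growth factor CSF1, at log2 ratios of −0.67 in CD and −0.23 in HFD.

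*Lst1*, a leukocyte transmembrane adaptor high in monocytes, was detected in 21 of 22 CD and 38 of 38 HFD members. Its level was 971 CPM against 180 in the other kept cells in CD and 967 against 117 in HFD, log2 ratios of 2.44 (2.17 to 2.69) and 3.04 (2.82 to 3.26). *Ms4a6c*, a tetraspan membrane protein of monocytes, stood at 1038 against 170 CPM in CD and 925 against 164 in HFD. The highest member held 15.6% of the *Ms4a6c* UMIs in CD and 9.64% in HFD. By *Plac8* UMIs it was in HFD at 183 CPM in the 11 members with 1 or 2 *Plac8* UMIs, near that of the other kept cells, 1063 in the 10 with 3 to 9 and 1504 in the 17 with 10 or more, and in CD it was at 591, 854 and 1280 in the same order. *Msrb1*, a selenoprotein that repairs oxidised methionine, was at 493 CPM in members of either library, against 107 in CD and 112 in HFD. With every cell thinned to 1000 UMIs, *Lst1* was seen in 59.1% of CD members and 16.8% of the others, and in 60.5% and 11.5% in HFD.

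**Figure D2:**
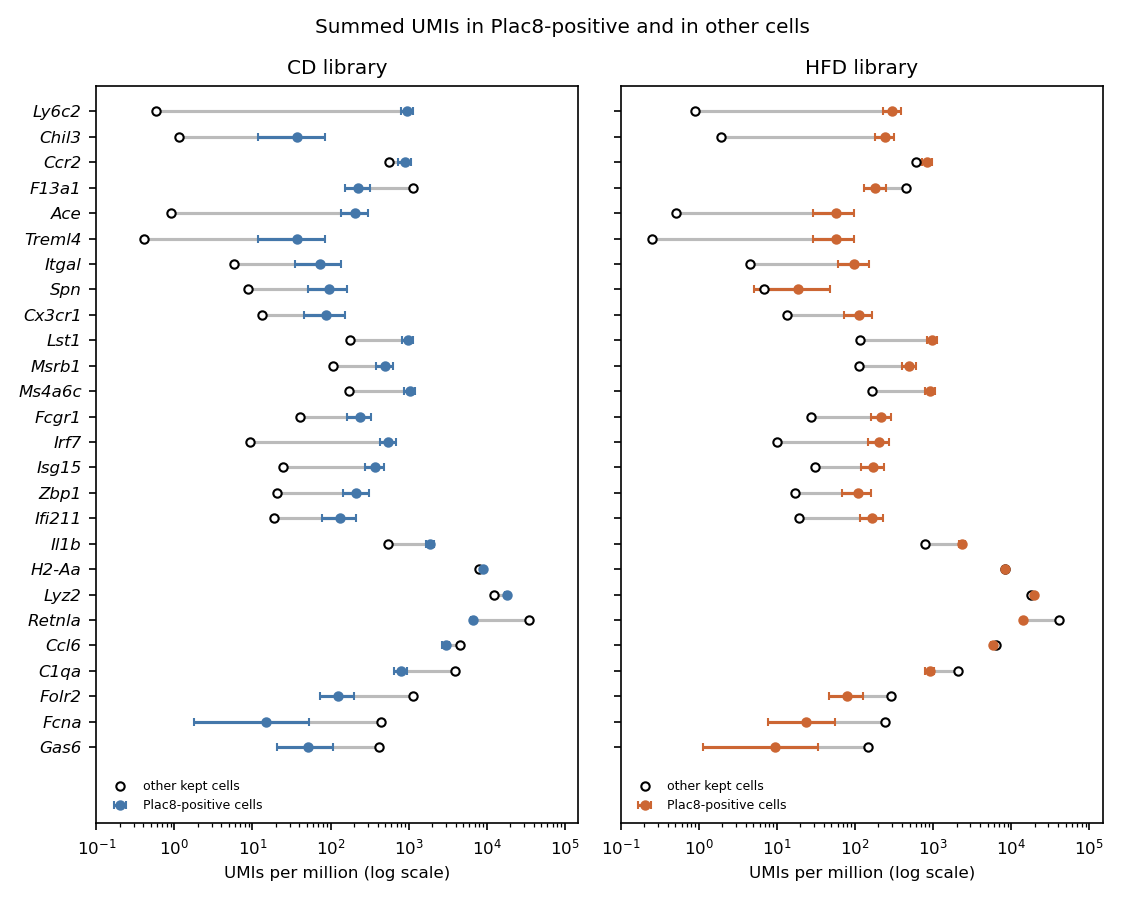
Level (x axis, CPM on a log axis) of 26 genes in Plac8-positive cells and in the other kept cells of the CD and HFD libraries, with bars for 95% counting intervals of the Plac8-positive cells. Ly6c2 stands at 949 against 0.58 in CD and 300.4 against 0.89 in HFD, whereas H2-Aa lies at 9029 against 7991 and 8312 against 8407.

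Other cell types were checked by their own markers. Of 20 T and natural killer cell genes 18 were at 0 in the CD members, *Cd3e* and *Nkg7* included, and 91 of the 96 UMIs were of the chemokine *Ccl5*. In HFD 16 were at 0 and the list summed to 5 UMIs. B cell genes summed to 18 UMIs in CD and 34 in HFD, of which 17 and 31 were *Ighm*, with *Ms4a1* and *Pax5* at 0. Neutrophil genes summed to 7 and 13 UMIs, with *S100a8*, *S100a9* and *Ly6g* at 0 in both libraries. Dendritic cell genes summed to 41 UMIs in CD and 190 in HFD, with *Flt3*, *Zbtb46*, *Xcr1* and *Clec9a* at 0. The leading dendritic cell gene in HFD was *Ccl17*, with 103 UMIs, of which 99% lay in 1 cell of 12681 UMIs. Plasmacytoid dendritic cell genes gave 60 UMIs in CD, 46 of them *Ly6a*, and 27 in HFD. Endothelial genes gave 17 and 30 UMIs, mostly *Fabp4*, with *Cdh5* and *Kdr* at 0, and eosinophil and mast cell genes gave 0 and 1. Genes of platelets and red cells gave 5 and 26 UMIs, 24 of the latter from *Ppbp* in 1 cell.

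Some of these lists stood above the other kept cells. T and natural killer cell genes in CD were at 706 against 39.8 CPM and plasmacytoid genes in CD at 442 against 158. Dendritic cell genes in HFD were at 892 against 538 CPM. The stromal list in CD was furthest above, at 5122 against 237 CPM. The stromal list summed to 696 UMIs in CD and 27 in HFD, and 678 of the CD UMIs lay in 1 cell of 9218 UMIs that held 477 UMIs of *Dcn*, the fibroblast proteoglycan decorin, and 3 of *Lyz2*. That cell was picked out after its values were seen. Genes whose CD value rests on it are named where they occur.

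The classical monocyte list was split. Of 11 such genes in CD, 4 were at least 2-fold higher in Plac8-positive cells and 2 lower, with a median log2 ratio of 0.02, against 10.7% of all genes higher and 10.9% lower, and of 12 in HFD 5 were higher and 2 lower, with a median of 0.42, against 7.06% and 6.11%. *Ly6c2*, which encodes the Ly6C antigen, had the widest gap of the named genes. It stood at 949 CPM against 0.58 in the other kept CD cells and at 300.4 against 0.89 in HFD, log2 ratios of 10.69 (9.60 to 12.03) and 8.40 (7.27 to 9.77). It was not a property of every member: 9 of 22 CD cells and 12 of 38 HFD cells had a *Ly6c2* UMI, and 1 CD cell with 75 UMIs held 58.1% of the CD total. Reads of *Ly6c2* and its near-identical neighbour *Ly6c1* are hard to part, and *Ly6c1* itself had 11 UMIs in the CD members and 0 in HFD. After thinning to 1000 UMIs, 18.2% of CD members and 0.0873% of the others kept a *Ly6c2* UMI, against 23.7% and 0.291% in HFD.

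*Chil3*, a chitinase-like protein of young monocytes, had a smaller footprint in CD, with 36.8 CPM in 4 cells against 1.15 in the others, and 244 CPM in 11 cells against 1.91 in HFD. *Hp*, the haemoglobin scavenger haptoglobin, was at log2 ratios of 3.81 in CD and 4.79 in HFD. *Trem3*, an activating receptor of the TREM family, was at 8.07 and 8.11 from 6 and 15 UMIs, below the level needed to be counted. *Ccr2* was broad and only modestly higher, at 890 against 557 CPM in CD and 835 against 604 in HFD, in 16 and 35 members. *Fn1*, which encodes fibronectin, and *F13a1*, which encodes a clotting factor subunit, are held by classical monocytes and by tissue macrophages, and both were lower here: *Fn1* by −1.38 and −1.42 and *F13a1* by −2.30 and −1.29 in CD and HFD.

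Many of the patrolling monocyte genes at the level needed to be counted were higher as well. Of 12 in CD, 8 were at least 2-fold higher and 1 lower, with a median log2 ratio of 2.02, and of 10 in HFD 6 were higher and 2 lower, with a median of 1.31, beside 10.7% higher and 10.9% lower of all genes in CD and 7.06% and 6.11% in HFD. Without each gene's highest cell 8 in CD and 5 in HFD were past 2-fold higher, as were 136 of 2455 and 91 of 2437 of all genes. Of the 19 genes in the list only 12 in CD and 10 in HFD were counted. A gene can reach that level through the members alone, as *Ace* did, so the counts partly follow from it. Summed over all 19 genes, the log2 ratio was 0.50 (0.40 to 0.60) in CD and 0.05 (−0.03 to 0.12) in HFD. *Cebpb* gave 358 of the 861 UMIs in CD and 616 of the 1383 in HFD. *Cx3cr1* was at 88.3 against 13.1 CPM in CD and 113 against 13.3 in HFD, in 9 and 16 members, log2 ratios of 2.75 (1.77 to 3.60) and 3.08 (2.37 to 3.73). *Itgal*, the alpha chain of the integrin LFA-1 that patrolling cells use on endothelium, was at 3.67 and 4.43. *Treml4*, a receptor of patrolling monocytes, was at 6.48 and 7.79 from 5 and 12 UMIs, below the level needed to be counted. *Ace*, the angiotensin-converting enzyme, was at 206 against 0.905 CPM in CD and 56.3 against 0.508 in HFD, but 10 of its 28 CD UMIs lay in the cell rich in *Dcn*. The sialoglycoprotein gene *Spn* was at 3.44 (2.49 to 4.28) in CD, and in HFD 4 UMIs gave 1.45 with an interval that held 0 (−0.47 to 2.89).

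The transcription factors of these lists did not all follow. *Nr4a1*, on which patrolling monocytes depend, was at 603 against 679 CPM in CD and 798 against 857 in HFD, so members and other ATMs had like levels with intervals of −0.50 to 0.14 around the CD log2 ratio of −0.17. *Cebpb*, a factor of myeloid maturation and of patrolling monocyte survival, was at 2634 against 644 CPM in CD and 2891 against 1394 in HFD. *Pou2f2* was at log2 ratios of 2.01 and 1.80, and *Hes1*, a target of Notch signalling, at 110 against 17.0 CPM in CD and 164 against 6.73 in HFD. *Klf2* was at −0.64 and −0.57. Of 30 transcription factor genes 5 were higher and 4 lower in CD, and 4 higher and 1 lower in HFD, where 10.7% and 10.9% of all genes in CD and 7.06% and 6.11% in HFD were that far apart. *Ear2*, an RNase that marks patrolling monocytes but also a large group of ATMs here, was lower in members, at 324 against 832 CPM in CD and 662 against 1730 in HFD.

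Classical and patrolling genes were seen together in some members and apart in others, and 4 of 8 CD and 8 of 13 HFD cells with a UMI of *Ace*, *Treml4* or *Cd300e* also had one of *Ly6c2* or *Chil3*. Sorted by any UMI of *Ly6c2* or *Chil3* against any UMI of *Ace*, *Treml4* or *Cd300e*, a split chosen after the values were seen, 7 CD and 10 HFD cells had only the first kind, 4 and 5 only the second, 4 and 8 both, and 6 and 15 neither, with the cell rich in *Dcn* set apart. Presence of a UMI depends on depth, and cells with only the second kind were shallow, with median UMIs of 2995 in CD and 2677 in HFD against 6503 and 5052 for the first kind. Cells with only *Ace*, *Treml4* or *Cd300e* had 592 CPM of *Itgal* in CD and 126 in HFD, the latter from 2 UMIs, where the cells with only *Ly6c2* or *Chil3* had 0 and 53.1. They had 676 and 3344 CPM of *H2-Aa*, the alpha chain of an MHC class II molecule, where the cells with only *Ly6c2* or *Chil3* had 9629 and 6835. *Ccr2* in the CD cells was at 84.6 against 1418 CPM in the same order, but in HFD at 1199 against 1027. *Fn1* was at 0 and 63.1 CPM in the cells with only *Ace*, *Treml4* or *Cd300e*.

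The cells with neither kind of gene had 15070 and 10640 CPM of *H2-Aa* in CD and HFD, and 44743 and 31779 of *Cd74*, the MHC class II invariant chain, whereas *H2-Aa* in the other kept cells was at 7991 and 8407. The 15 HFD cells had 21989 CPM of *Retnla* and 495 of *Plac8*. *Retnla* in HFD was at 18570 CPM in the 11 cells with 1 or 2 *Plac8* UMIs, 14993 in the 10 with 3 to 9 and 9700 in the 17 with 10 or more, but 1 cell held 576 of the 762 UMIs with 3 to 9 and another 571 of the 832 with 10 or more. Median *Retnla* UMIs per HFD cell were 69, 13.5 and 13 in that order. The CD values in the same order were 3499, 14678 and 2672 in 4, 7 and 11 cells, and 1 CD cell held 63.9% of all *Retnla* UMIs of the CD members.

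**Figure D3:**
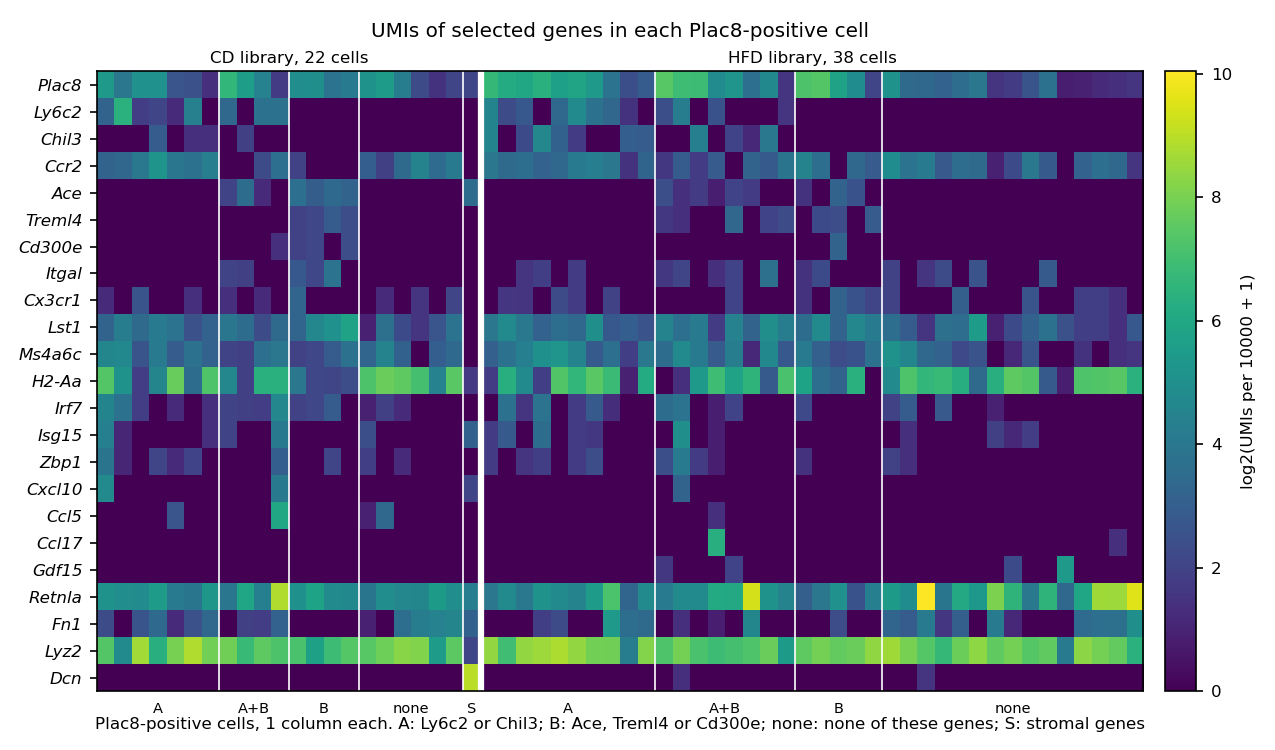
Heat map of 23 genes (y axis) in each of the 60 Plac8-positive cells (x axis, grouped by library and by which monocyte genes had a UMI: A, Ly6c2 or Chil3 only, B, Ace, Treml4 or Cd300e only, A+B, both, none, neither, S, the cell rich in Dcn), with colour giving log2(UMIs per 10000 + 1). Ly6c2 is present in 9 of 22 CD and 12 of 38 HFD cells, and Lst1 in 21 and 38.

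Of all genes 10.7% were at least 2-fold higher and 10.9% lower in CD, and 7.06% and 6.11% in HFD. Of 6 listed Fc receptor genes outside the rule 1 was at least 2-fold higher and 2 lower in each library, with medians of 0.06 in CD and −0.04 in HFD. The higher gene was *Fcgr1*, and the lower were *Fcgrt*, the neonatal Fc receptor gene, at −2.02 and −1.24, and *Fcrls* at −3.01 and −2.20. *Fcgr1*, the high-affinity IgG receptor, was at 235 against 41.1 CPM in CD and 216 against 27.7 in HFD, log2 ratios of 2.52 (1.96 to 3.04) and 2.96 (2.47 to 3.43). The low-affinity IgG receptor genes *Fcgr2b* and *Fcgr3* lay near 0, with *Fcgr2b* at 0.03 and −0.04 and *Fcgr3* at 0.10 and −0.04. Against the same shares of all genes, 6 of 13 paired receptor genes were higher and 0 lower in CD. In HFD 7 of 15 were higher and 0 lower, and the medians were 0.99 and 0.81. The list has 25 genes, and a gene can reach the level needed through the members alone, so these counts partly follow from it. Summed over all 25, the log2 ratios were 0.89 in CD and 0.79 in HFD. Without each gene's highest cell 5 were higher and 1 lower in CD, and 5 and 0 in HFD. Of all genes 136 of 2455 were then higher in CD and 91 of 2437 in HFD. *Cd300c2*, of the CD300 receptor family, was at 258 against 30.4 CPM in CD and 235 against 51.9 in HFD. *Sirpb1b* was at 4.72 and 3.61 and the related *Gm9733* at 7.38 and 6.24, but these and *Sirpb1c* are near-identical copies between which reads are uncertain.

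Further genes among the 15 with the highest ratio in both libraries were *Sema4d*, a semaphorin of leukocytes, at log2 ratios of 5.02 in CD and 3.70 in HFD, and *Tspan13*, a tetraspanin, at 4.23 and 3.45. *Gsr*, which encodes glutathione reductase, was at 272 against 15.7 CPM in CD and 408 against 35.4 in HFD. Of the MS4A family outside the rule, 3 of 5 genes were higher and 1 lower in each library, with *Ms4a6b* at 2.04 and 2.29 and *Ms4a6d* at 2.49 and 2.15, and these paralogs may also trade reads. The list has 10 genes, and those counted can reach the level needed through the members alone. Summed over all 10, the log2 ratios were 1.83 in CD and 1.85 in HFD. Adhesion and migration genes were more even: 5 of 15 were higher and 3 lower in CD, and 3 and 1 of 15 in HFD. Of 27 genes of actin and its regulators 5 were higher in CD and 4 in HFD, with 0 lower. For these 3 lists the shares of all genes were 10.7% higher and 10.9% lower in CD and 7.06% and 6.11% in HFD.

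Interferon-stimulated genes were higher in Plac8-positive cells, and most UMIs of 10 of them sat in few cells. Of 34 listed genes in CD 26 were at least 2-fold higher and 0 lower, with a median log2 ratio of 1.97, and of 23 in HFD 16 were higher and 0 lower, with a median of 1.47, against 10.7% and 7.06% of all genes higher. Without each gene's highest cell 21 in CD and 13 in HFD were higher, as were 136 of 2455 and 91 of 2437 of all genes. The list has 51 genes in the data, and a gene can reach the level needed to be counted through the members alone. The counts partly follow from that level. Summed over all 51 genes, the log2 ratio was 1.42 (1.35 to 1.48) in CD and 1.13 (1.07 to 1.19) in HFD. *Irf7*, the transcription factor that drives the later interferon response, was at 545 against 9.30 CPM in CD and 202 against 10.2 in HFD, log2 ratios of 5.87 (5.43 to 6.31) and 4.31 (3.74 to 4.86), with UMIs in 15 members of each library. *Isg15*, a ubiquitin-like modifier, was at 368 against 24.3 CPM in CD and 169 against 30.6 in HFD, in 7 and 11 members. The highest single cell held 40% of the *Isg15* UMIs in CD and 52.8% in HFD. *Zbp1*, a sensor of nucleic acids, was at 213 against 20.7 and 108 against 16.9 CPM, and *Ifi211*, of a family of close paralogs that bind DNA, at 132 against 18.6 and 164 against 19.2.

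The promoters of 5 interferon-stimulated genes with ratios above 0 in both libraries are shown because interferon-activated factors act on a known run of letters near the start of such genes. The 120 bases before the start site are given from RefSeq (GRCm38.p6, minus strand for each, 5′ to 3′), with matches to GAAANNGAA, the core of the interferon-stimulated response element, in capitals. They lie at chr4:156200819-156200938 for *Isg15*, chr5:120907526-120907645 for *Oas1a*, chr7:140955962-140956081 for *Ifitm2*, chr1:173913047-173913166 for *Ifi211* and chr7:141266425-141266544 for *Irf7*.
Isg15: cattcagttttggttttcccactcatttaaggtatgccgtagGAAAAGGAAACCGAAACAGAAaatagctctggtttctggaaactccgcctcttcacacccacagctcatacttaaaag
Oas1a: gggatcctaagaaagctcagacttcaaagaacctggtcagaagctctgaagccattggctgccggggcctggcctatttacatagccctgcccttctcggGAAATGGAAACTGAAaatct
Ifitm2: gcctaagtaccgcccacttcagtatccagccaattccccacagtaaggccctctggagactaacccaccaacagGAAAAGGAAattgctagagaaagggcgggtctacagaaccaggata
Ifi211: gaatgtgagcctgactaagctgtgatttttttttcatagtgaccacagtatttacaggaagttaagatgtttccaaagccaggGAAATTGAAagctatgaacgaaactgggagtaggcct
Irf7: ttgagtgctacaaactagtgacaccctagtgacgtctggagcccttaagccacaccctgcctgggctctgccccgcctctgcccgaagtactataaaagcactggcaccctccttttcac
*Isg15* had 3 overlapping matches, which began 78, 72 and 66 bases before the start, and *Oas1a*, a synthetase of the second messenger that activates RNase L, had 2, at 20 and 14 bases. *Ifitm2*, a membrane protein that blocks virus entry, and *Ifi211* had 1 match each, 46 and 37 bases before the start. *Irf7* had 0 matches within 250 bases. Searched on both strands over 250 bases, 23 of the 42 genes of the interferon list with a promoter held the letters (54.8%), against 8.18% of 27025 genes. Of the 15 genes with the highest ratio in both libraries, 10 had a promoter to search and 4 held them. A match is a description of the letters and not a site of binding.

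The UMIs of 10 interferon genes were then followed cell by cell, a choice made after the data were seen. Summed over *Irf7*, *Isg15*, *Zbp1*, *Ifit1*, *Ifit2*, *Ifit3*, *Rsad2*, *Cxcl10*, *Oasl1* and *Usp18*, 5 of 22 CD and 3 of 38 HFD members had 10 or more UMIs, against 0.384% and 0.504% of the other kept cells. Those cells held 90.4% of the 261 UMIs of these genes in CD and 61.4% of the 145 in HFD, and 4 CD and 16 HFD members had 0. Taking out members for their UMIs of these 10 genes lowers the same genes by construction, and the other kept cells were left whole, so the values without them are a description. Of the 34 listed interferon genes in CD 11 were then at least 2-fold higher and 1 lower, with a median of 0.63. Of the 23 in HFD 12 were higher and 0 lower, with a median of 1.05. Of all genes 287 of 2455 were then higher in CD and 157 of 2437 in HFD. *Irf7* then had log2 ratios of 4.22 (3.34 to 5.01) in CD and 3.57 in HFD. Of genes outside the 10, *Oas1a* was at 2.46 and 1.92 and *Ifi211* at 1.32 (−0.57 to 2.69) and 2.46.

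The rich cells differed among themselves. A CD cell of 12723 UMIs held 31 UMIs of *Irf7*, 20 of *Isg15*, 20 of *Cxcl10*, 79 of *Ccl5* and 584 of *Retnla*. Another CD cell, of 7316 UMIs, held 16 of *Irf7*, 14 of *Isg15* and 19 of *Cxcl10*, and the cell with 75 *Ly6c2* UMIs, of 8817 in all, held 11 of *Irf7*. The cell rich in *Dcn* was also among the 5, with 10 UMIs of these genes, 7 of them *Isg15* and 0 *Irf7*. In HFD the cell with most *Isg15*, 19 UMIs among 6054, held 72 UMIs of *Plac8*. Without the rich cells *Ifitm3* was at 1.16 in CD and 0.98 in HFD against 1.28 and 1.05 with all members, and *Ifi27l2a* at 0.86 and 1.86 against 1.32 and 1.98. *Bst2*, which encodes the tethering protein tetherin, was then at 0.65 in CD with an interval that held 0 (−0.07 to 1.28) and at 0.71 (0.18 to 1.20) in HFD.

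Of 18 MHC class I genes, 11 were at least 2-fold higher in CD and 0 lower, with a median log2 ratio of 1.08, against 10.7% of all genes higher. Without the members rich in interferon genes 7 of the 18 were higher, with a median of 0.90, beside 287 of 2455 of all genes. Without each gene's highest cell 8 were higher, with a median of 0.76, beside 136 of 2455 of all genes. Of 12 in HFD 1 was higher, a share near the 7.06% of all genes, with a median of 0.54. The list has 22 genes, and the 18 and 12 counted are not the same set, since a gene can reach the level needed through the members alone. Summed over all 22, the log2 ratio was 0.98 (0.91 to 1.05) in CD and 0.40 (0.33 to 0.46) in HFD. *B2m*, the light chain of class I molecules, was at 5350 against 2170 CPM in CD and 3713 against 1967 in HFD. *Psmb9*, an immunoproteasome subunit, was at 1.97 in CD and 0.73 in HFD, and *Tap1*, which carries peptides into the endoplasmic reticulum, at 2.36 and 0.54. Class II genes had 1 of 10 higher in CD, near the 10.7% of all genes, and 0 of 9 in HFD, with medians of 0.01 and −0.11. *H2-Aa* was at 9029 against 7991 CPM in CD and 8312 against 8407 in HFD.

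Plac8-positive cells expressed *Il1b*, which encodes interleukin-1β, at 1899 against 548 CPM in CD and 2351 against 799 in HFD, in 19 and 33 members. *Tgfb1* was at log2 ratios of 0.82 and 1.39. Of the cytokine and chemokine list 6 of 23 genes were at least 2-fold higher and 10 lower in CD, and 3 of 18 were higher and 6 lower in HFD, against 10.7% and 10.9% of all genes in CD and 7.06% and 6.11% in HFD. Without each gene's highest cell the counts were 3 higher and 14 lower in CD and 3 and 9 in HFD. That choice lowers genes in general: of the same 2455 genes in CD 136 were then higher and 502 lower. Of the 2437 in HFD 91 were higher and 285 lower. *Ccl7* was at 221 against 1165 CPM in CD and 174 against 595 in HFD, and *Ccl24*, a chemokine for eosinophils, at 162 against 1043 and 150 against 557. *Cxcl10*, a target of interferon, was at 309 against 33.8 CPM in CD with all 42 UMIs in 3 cells, and at 23.5 against 35.8 in HFD with its UMIs in 1 cell.

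Genes of resident macrophages were low. Of 23 listed in CD 21 were at least 2-fold lower and 0 higher, with a median log2 ratio of −3.04, against 10.9% of all genes lower, and of 20 in HFD 14 were lower and 0 higher, with a median of −1.44, against 6.11%. *Lyve1* had 1 UMI in the CD members and 4 in HFD. *Folr2* was at 125 against 1149 CPM in CD and 79.8 against 294 in HFD. *Fcna*, a complement-activating lectin, was at 14.7 against 442 and 23.5 against 246, and *Gas6*, a ligand that lets macrophages bind dying cells, at 51.5 against 414 and 9.39 against 147. A UMI of *Lyve1*, *Folr2*, *Fcna*, *Timd4* or *Cd209f* was absent from 6 of the 22 CD members and 28 of the 38 HFD members. The complement gene *C1qa* was at −2.28 and −1.22 and the mannose receptor gene *Mrc1* at −3.04 and −1.63.

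The genes named lowest in both libraries included haemoglobin, with *Hbb-bs* at 36.8 against 382 CPM in CD and 0 against 484 in HFD, and *Hba-a1* at 0 against 236 and 9.39 against 238. They also included *Mmp9*, a matrix protease, at 7.36 against 131 and 4.69 against 109 CPM, and *Areg*, an epidermal growth factor receptor ligand, at 14.7 against 100 and 4.69 against 104. *Ltc4s*, the synthase of leukotriene C4, was at −2.76 and −3.10, the junction protein gene *Jup* at −2.66 and −2.48, and the B cell adaptor gene *Blnk* at −2.71 and −2.45. *Hba-a1* and *Hba-a2* are near-identical copies.

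**Figure D4:**
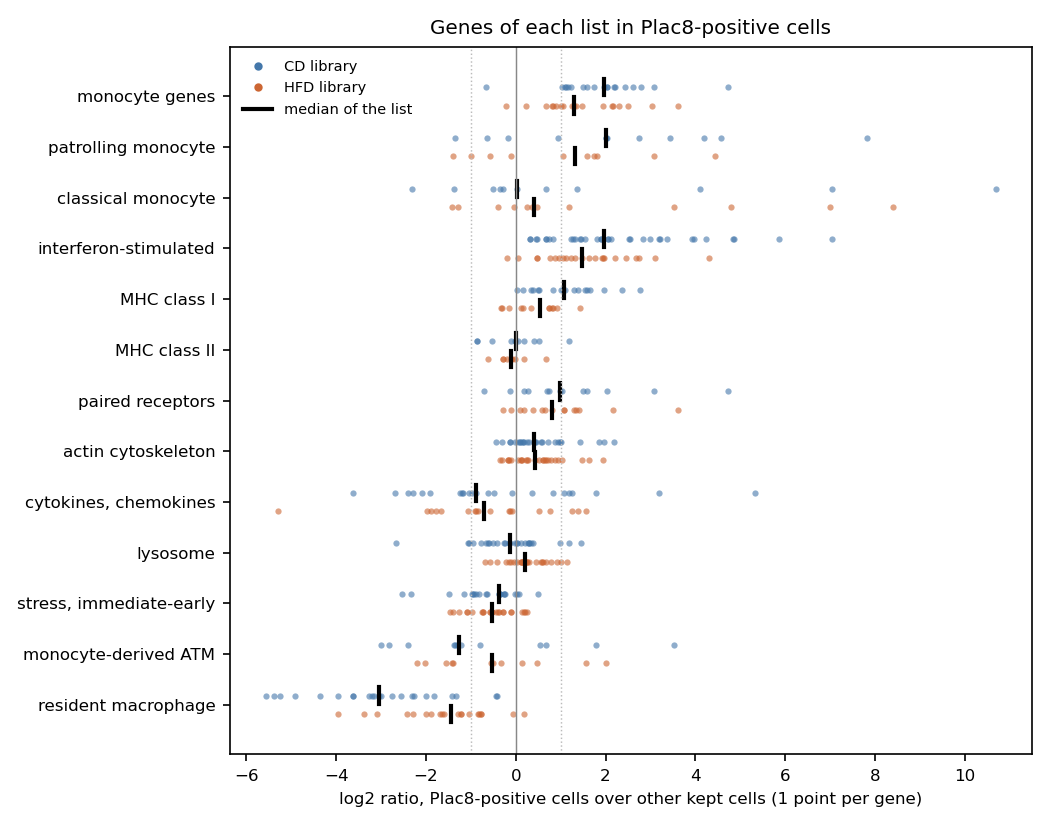
Log2 ratio of Plac8-positive cells over other kept cells (x axis) for each gene of 13 lists (y axis) in the CD and HFD libraries, with a bar at each median and dotted lines at 2-fold. The general monocyte list has medians of 1.97 in CD and 1.29 in HFD and the resident macrophage list −3.04 and −1.44.

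Plac8-positive cells were also set beside a group of ATMs rich in *Lyz1* and *Ear2* transcripts. These were the kept cells with at least 5 UMIs of *Lyz1*, at least 1 of *Ear2* and 0 of *Folr2*, 199 in CD and 546 in HFD. Of 12 genes of monocyte-derived ATMs 2 were at least 2-fold higher in Plac8-positive cells than in all other kept cells and 7 lower in CD, and 2 higher and 5 lower in HFD, with medians of −1.26 and −0.52. Of all genes 10.7% were that much higher and 10.9% lower in CD, and 7.06% and 6.11% in HFD. Against the cells rich in *Lyz1* and *Ear2*, Plac8-positive cells had *Ms4a6c* at log2 ratios of 5.34 in CD and 4.82 in HFD, *Fcgr1* at 6.49 and 5.46, *Irf7* at 8.11 and 5.13, and *Lst1* at 3.74 and 3.84. *Fn1* was at −2.60 and −1.93 and *Retnla* at −2.95 and −1.99. *Apoe*, the lipid carrier of mature macrophages, was higher in Plac8-positive cells than in this reference, at 2.49 and 1.81, and the lysosomal protease gene *Lgmn* at 2.02 and 1.75. Against cells with *Lyve1* and *Folr2*, 1056 in CD and 230 in HFD, *Il1b* was at 3.18 and 3.05, *Ms4a6c* at 2.12 and 1.17, and *Pf4*, a platelet chemokine that resident macrophages also transcribe, at −4.27 and −2.36.

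For HFD against CD within Plac8-positive cells, 1305 genes had a mean of 100 CPM or more over both libraries. Of these 45 (3.45%) were at least 2-fold higher in HFD and 55 (4.21%) lower, with a median log2 ratio of −0.01. In the other kept cells 9 of 1240 genes (0.726%) were higher and 27 (2.18%) lower, but those sums hold far more UMIs. They also cover a different mixture of cells in each library, with 1056 cells with *Lyve1* and *Folr2* in CD and 230 in HFD. Genes were named by the bound of the interval nearest to 0, and many of the names rest on 1 cell. The lowest were *Dcn*, *Mgp*, *Ccl5*, *Sparc*, *Inmt*, *Col1a2*, *Gpx3* and *Igfbp7*, and all but *Ccl5* came from the cell rich in *Dcn*. *Ccl5* had 91 UMIs in CD, 86.8% of them in 1 cell, and 2 in HFD. Of the highest, *Ccl17* had 103 UMIs in HFD and 0 in CD, and *Gdf15*, a stress-induced cytokine, had 60 and 0, with 99% and 91.7% of the UMIs in 1 cell.

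Of the 8 genes named highest in HFD, *Gm10076*, *Chil3*, *Pf4*, *C5ar1*, *Cd36* and *Cxcl2* did not rest on 1 cell. *Chil3* was at 244 CPM in HFD against 36.8 in CD, a log2 ratio of 2.73 (1.42 to 4.41), which was 3.19 without the highest cell of each library and 0.73 in the other kept cells. *C5ar1*, the receptor of the complement fragment C5a, was at 573 against 147 CPM, 1.95 without the highest cell and 0.23 in the others. *Cd36*, a fatty acid and lipoprotein receptor, was at 563 against 147 CPM, 1.75 without the highest cell and 0.34 in the others. *Cxcl2*, a neutrophil chemokine, was at 1094 against 302 CPM, with 1.97 and 0.65. *Pf4* was at 1159 against 280 CPM, with 1.74 without the highest cell and −0.74 in the others. *Gm10076*, a predicted gene, was at 3.66 (2.50 to 5.14) among members and 3.58 among the others, a difference of the whole library.

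Part of this excess lay in members with few *Plac8* UMIs, as a split added after the data were seen shows. Among the 11 CD and 17 HFD members with 10 or more *Plac8* UMIs, *Pf4* was at 408 CPM in HFD against 267 in CD, a log2 ratio of 0.61 whose interval held 0 (−0.23 to 1.499), and 23 of its 35 HFD UMIs lay in 1 cell. The 11 HFD members with 1 or 2 *Plac8* UMIs held 115 of the 247 *Pf4* UMIs and the 10 with 3 to 9 held 97. *C5ar1* was at 1.19 (−0.03 to 2.57) in the members with 10 or more, *Cd36* at 1.45 (0.18 to 2.91) and *Cxcl2* at 1.35 (0.48 to 2.29). *Chil3* was at 3.27 (1.61 to 5.62) in these members and had 0 UMIs in the HFD members with 1 or 2.

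Leaving out the highest cell of each gene, added after the data were seen, changed the names. The 8 highest then shared 5 genes with those above and included *Retnla* and *Lpl*, the lipoprotein lipase gene. *Retnla* was at 14146 CPM in HFD against 6726 in CD, a log2 ratio of 1.07 that became 2.24 (2.07 to 2.41) without the highest cells, and 0.23 in the other kept cells. Among members with 10 or more *Plac8* UMIs *Retnla* was at 9700 against 2672 CPM, with 571 of the 832 HFD UMIs in 1 cell. *Lpl* was at 0.76 with all members and 2.25 without the highest cells, but in the opposite direction in members with 10 or more *Plac8* UMIs, at 117 CPM in HFD against 661 in CD, where 42 of 47 CD UMIs lay in 1 cell. Its HFD UMIs lay mostly in members with 1 or 2 (85) and 3 to 9 (56, of which 39 in 1 cell) *Plac8* UMIs. The 8 lowest shared 0 genes with those above and were *Actb*, *Tmsb10*, *Clec12a*, *Gm11808*, *Fermt3*, *C3ar1*, *Isg15* and *Plbd1*. *Clec12a*, an inhibitory lectin receptor of monocytes, was at 117 CPM in HFD against 368 in CD, with −1.65 (−2.40 to −0.93) for all members, −1.51 without the highest cell and −0.87 in the others. *Isg15* was at −1.12, −1.47 and 0.33 in the same order, and *Irf7* at −1.43, −0.95 and 0.13. The members rich in interferon genes, 5 of 22 in CD and 3 of 38 in HFD, held most UMIs of both genes in CD. Without these members *Isg15* was at 0.54 (−1.42 to 3.04), from 3 UMIs in CD and 10 in HFD, and *Irf7* at −0.52 (−1.51 to 0.51). That choice of cells lowers both genes by construction. In members with 10 or more *Plac8* UMIs *Isg15* was at 0.18 (−0.67 to 1.04) and *Irf7* at −0.43 (−1.14 to 0.28). Each of these intervals held 0. Without the members rich in interferon genes *Ly6c2* was at −0.53 (−1.19 to 0.16) and *Clec12a* at −1.53 (−2.39 to −0.69).

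**Figure D5:**
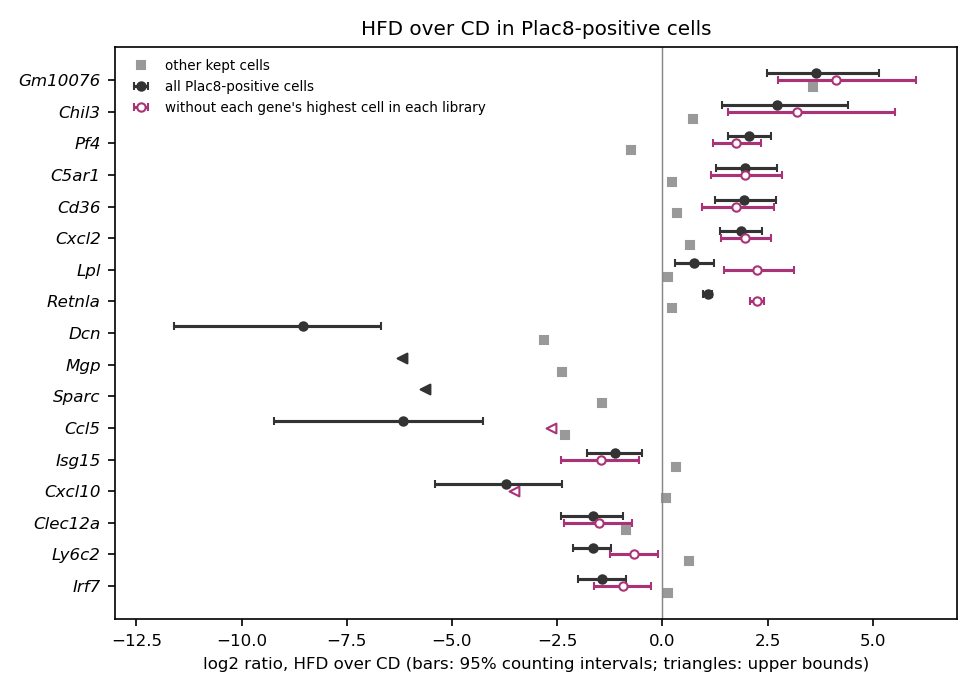
Log2 ratio of HFD over CD (x axis) for 17 genes (y axis) in all Plac8-positive cells, in these cells without the highest cell of each gene in each library, and in the other kept cells (squares), with 95% counting intervals for the Plac8-positive cells and triangles marking upper bounds. Chil3, C5ar1, Cd36, Cxcl2 and Pf4 stay between 1.74 and 3.19 without the highest cell, and Isg15, Irf7 and Clec12a between −1.51 and −0.95. In members with 10 or more Plac8 UMIs Pf4 is at 0.61, Isg15 at 0.18 and Irf7 at −0.43. Without the members rich in interferon genes Isg15 is at 0.54 and Irf7 at −0.52.

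By list, and leaving out the lists of other cell types, the medians of HFD over CD in all members lay between −0.54 for MHC class I genes and 0.75 for genes of lipid-associated macrophages. Further out were lists with few genes at the level needed: T and natural killer cells at −6.16 (1 gene), plasmacytoid dendritic cells at −4.17 (1), stromal cells at −4.30 (4) and dendritic cells at 2.38 (2). Of 19 general monocyte genes 0 were higher in HFD and 4 lower, with a median log2 ratio of −0.20, and of 24 interferon genes 1 was higher and 6 lower, with a median of −0.21, beside 3.45% of all genes higher and 4.21% lower. In members with 10 or more *Plac8* UMIs 1 of the 19 monocyte genes was lower, with a median of −0.06, and *Lst1* was at 886 CPM in CD and 1341 in HFD, *Ms4a6c* at 1280 and 1504, and *Msrb1* at 591 and 851. The interferon genes in those members were 4 higher and 1 lower, with a median of 0.19. Of all genes 83 were higher and 101 lower in those members, where 45 and 55 were with all members. Without the members rich in interferon genes the monocyte genes were 0 higher and 5 lower, with a median of −0.49, while of all genes 80 were higher and 58 lower. Of the 24 interferon genes, some of which that choice lowers by construction, 22 then had a value. Among these 7 were higher and 0 lower, with a median of 0.01. With all members 4 of 14 MHC class I genes were lower and 0 higher, against 4.21% of all genes lower. Lipid handling genes had 2 of 9 higher and 0 lower, with a median of 0.74. Those of lipid-associated macrophages had 2 of 8 higher and 0 lower, against 3.45% of all genes higher. Both medians were below 0 in members with 10 or more *Plac8* UMIs, at −0.13 with 1 gene higher and 2 lower and at −0.47 with 0 higher and 2 lower, and *Plin2* was at −0.13 (−0.66 to 0.41) and *Lpl* at −2.50 (−3.65 to −1.499) there. Without the members rich in interferon genes the medians were 0.43 and 1.49. Classical genes moved both ways, with 2 of 13 higher, 2 lower and a median of −0.09, as did patrolling genes, with 1 of 8 higher, 2 lower and a median of 0.05. *Ly6c2* was at −1.66 with all members and at −0.68 without its highest cell in each library. Of the resident macrophage genes 11 reached the level needed in Plac8-positive cells, of which 1 was higher and 0 lower, with a median of 0.18, and among the other kept cells 3 of these 11 were lower, with a median of −0.80. The median in Plac8-positive cells was −0.53 in members with 10 or more *Plac8* UMIs and 0.84 without the members rich in interferon genes. *Gas6*, below that level, was at 51.5 CPM in CD and 9.39 in HFD.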

How the data were processed

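The authors sorted CD11b+ F4/80+ ATMs, built droplet 3′ libraries and counted UMIs per gene and cell barcode with Cell Ranger 3.0.2 against mm10 (Ensembl release 93 annotation), as named in the submitters' processing notes and the methods. The deposited files hold raw counts of 31053 genes in 2 libraries. Each diet had 1 library, so no test, p-value or standard error was computed: UMIs were summed over cells, given per 1000000 (CPM), and compared as log2 ratios with exact conditional binomial 95% intervals. A gene at 0 was given a floor of 3 counts. A difference counted as such from 2-fold. Shares have exact Clopper-Pearson intervals.

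Cells were filtered at 200 to 3500 genes and 10% mitochondrial UMIs, and doublets were scored with Scrublet in scanpy 1.11.5 but not removed. Its own threshold called 0 cells in CD and 2 in HFD, so it did not work as a caller here, and the highest scores up to the expected 159 and 80 were used. Named genes were the 15 highest and 10 lowest by the smaller of the CD and HFD log2 ratios with the same direction, at a mean of 50 CPM or more in both libraries, and for HFD over CD the 8 highest and 8 lowest by the bound nearest to 0, and 1 named gene is not reported here. The members, the 31 gene lists and the rules were chosen with earlier results of these data known. On simulated counts the intervals held the true ratio for 96.5% of 2414 genes in the CD comparison and 96.2% of 2400 in the HFD comparison. Those counts were drawn with the same counting error that the intervals assume and with no spread between cells. The coverage therefore checks the calculation only, and cannot speak for genes whose UMIs lie in few cells. Promoters are from RefSeq. Python 3.11.15, numpy 2.4.6, scipy 1.17.1 and pandas 2.3.3 were used, and 16 planned and 6 added alternatives were run.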

Additional observations from a re-analysis of the deposited data

Results flagged for a closer look

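For 6 of the listed or named genes a comparison went opposite ways in the 2 libraries or in members and other cells, with both intervals clear of 0, at least 1 of the ratios past 2-fold and both comparisons at the level needed to be counted. The difference was not tested in any of them. The other kept cells were a different mixture in each library, so they are not a like reference for the 2 diets. Cells with *Lyve1* and *Folr2* were 1056 of the 2342 others in CD and 230 of the 1983 in HFD. Cells rich in *Lyz1* and *Ear2* were 199 and 546. How far this mixture sets the signs was not tested. *Pf4* was at a log2 ratio of HFD over CD of 2.05 in Plac8-positive cells and −0.74 in the other kept cells, with 0.61 (−0.23 to 1.499) in members with 10 or more *Plac8* UMIs. *Mgl2*, a lectin of alternatively activated macrophages, was at 1.08 and −1.25 in the same order, and *Egr2*, an immediate-early factor, at 1.28 and −0.16. In members with 10 or more *Plac8* UMIs *Mgl2* was at 0.64 (−0.69 to 2.08), with its 15 HFD UMIs in 1 cell. *Egr2* was there at 1.41 (−0.11 to 3.21), so both intervals held 0. *C5ar1* was at −1.34 in members over other kept cells in CD and 0.39 in HFD. *Ms4a7*, a membrane protein of macrophages, was at −1.16 in CD and 0.71 in HFD. *Bcl2a1d*, a survival gene with near-identical copies, was at 0.94 in CD and −1.002 in HFD over the other kept cells, and its HFD over CD ratio was −1.10 in members and 0.85 in the others.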

How the results depend on the processing

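With 22 and 38 cells, a gene's sum can turn on 1 cell, and with 1 library a diet the spread between mice is unknown. No paired analysis was possible because each diet had 1 library, and leaving out a replicate was not possible for the same reason. The share was 2.41% in CD and 4.35% in HFD when *Plac8* was not required, 1.49% and 2.84% at a 5% mitochondrial limit, 0.543% in CD when thinned, and 2.93% in HFD with 1000 genes or more. Counts at least 2-fold over the other cells were 92 higher and 141 lower in CD and 82 and 77 in HFD when *Plac8* was not required, 91 and 89 in HFD at 2 summed UMIs, 51 and 64 in CD and 33 and 35 in HFD at a minimum of 200 CPM, and 637 and 646 in CD and 382 and 454 in HFD at 20. Weighting each cell equally gave 265 higher and 307 lower in HFD, members without a resident-gene UMI gave 634 higher in CD, and leaving out each gene's highest cell gave 109 higher and 431 lower in CD and 76 and 251 in HFD. For HFD over CD the counts were 21 higher and 14 lower when *Plac8* was not required, 75 and 86 without ribosomal protein and mitochondrial genes, 16 and 17 at 200 CPM, 481 and 577 at 20, and 137 and 176 in members without a resident-gene UMI, with 16 lower without each gene's highest cell, 83 and 101 in members with 10 or more *Plac8* UMIs, and 80 higher without the members rich in interferon genes. Median-of-ratios scaling removes a shift of 0.13 in CD and 0.14 in HFD and moves the higher share of genes past 2-fold from 49.5% to 40.7% in CD and from 53.6% to 38.6% in HFD. Of 794 values over other cells 3 changed sign: *Hba-a1* in HFD was 2.04 with 1000 genes or more, and *Fcna* and *Ltc4s* in HFD were 0.35 and 0.10 when *Plac8* was not required. Of 217 values of the 16 genes named for HFD over CD 186 moved by less than the interval and 0 changed sign. Outside those 16, in members with 10 or more *Plac8* UMIs *Lpl* went from 0.76 to −2.50, *Plin2* from 1.49 to −0.13, *Ctsd* from 1.64 to −0.59 and *Isg15* from −1.12 to 0.18. The cause was not tested for any of these.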

Other observations

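Lysosomal genes were close to the level of the other kept cells, with median log2 ratios of −0.12 in CD and 0.20 in HFD. Of 27, 2 were at least 2-fold higher and 3 lower in CD and 2 higher and 0 lower in HFD. Such counts are near the shares of all genes, 10.7% higher and 10.9% lower in CD and 7.06% and 6.11% in HFD. *Ctss*, a cathepsin active in antigen processing, was at 2443 against 1079 CPM in CD and 2427 against 1516 in HFD, and *Cd68*, a glycoprotein of the lysosome, at log2 ratios of 0.34 and 1.13. *Ctsd* was at 1281 CPM in the HFD members against 412 in CD, but at 280 against 422 in members with 10 or more *Plac8* UMIs. Against the same shares of all genes, 0 of 23 immediate-early and stress genes were higher and 4 lower in CD. In HFD 0 of 24 were higher and 5 lower, and the medians were −0.38 and −0.53. *Egr1* was at −2.34 and −1.47 and *Hspa1a*, which encodes a heat shock protein, at −0.98 and −0.72.

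*Plin2*, which coats lipid droplets, was at 1845 CPM in HFD members against 655 in CD, a log2 ratio of 1.49, with 1.54 in the other kept cells. Members with 10 or more *Plac8* UMIs showed no such difference, at 746 CPM in HFD against 816 in CD, and 122 and 82 of the 393 HFD UMIs lay in single cells with fewer *Plac8* UMIs. Over the other cells it was at 0.92 in CD and 0.87 in HFD. Of 11 lipid handling genes counted in CD 1 was at least 2-fold higher than in the other cells and 4 lower, with a median of −0.90. Of 15 in HFD 1 was higher and 3 lower, with a median of 0.22. Of all genes 10.7% were higher and 10.9% lower in CD, and 7.06% and 6.11% in HFD. A gene named here need not reach the level needed to be counted. *Msr1* was at 1.12 and 1.34 and *Scarb1* at 2.33 and 2.46, and *Pltp*, a phospholipid transfer protein gene, was at −1.72 and −1.32. Cycling genes gave 68 UMIs in CD and 94 in HFD, 38 of them *Tubb5* in each. Survival genes had 1 of 12 higher in CD, near the 10.7% of all genes. In HFD 0 of 11 were higher and 2 lower, against 7.06% and 6.11% of all genes.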
